A study of Drosophila melanogaster with 8 samples.

Results

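The 34 genes described here encode 3 families of secreted enzymes of the fly gut: 16 Jonah proteases, 11 trypsins and 7 c-type lysozymes. They were taken by name from the 17471 genes measured: every symbol that begins with Jon and a number, every symbol that ends in Try, and LysB, LysC, LysD, LysE, LysP, LysS and LysX. The naming rule uses no measured value, but it was set with earlier results of these data known. RNA of the larval fat body, the fly's store of fat, glycogen and protein, was sequenced in 4 groups of 2 libraries each. The first group was made from CPSF5H11/CPSF5H11 larvae, homozygous for an allele of the gene that encodes a subunit of cleavage factor I, starved for 16 h. The other groups came from OreR wild-type larvae that had food throughout, or went without it for 4 h or for 16 h. Flies of all groups were raised at 25 °C. The labels give neither the age of the larvae nor the lesion of the allele, nor do they say whether the 2 libraries of a group came from separate animals. P-values therefore measure only the spread between these libraries, which may be technical. None of the 8 libraries came from fed mutant larvae. In the mutant against fed wild type, genotype and starvation thus cannot be told apart.

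Jonah proteases and trypsins are serine endopeptidases that midgut cells secrete into the lumen, where they cut dietary protein into peptides. Trypsins cut after lysine or arginine. Most Jonah proteases resemble chymotrypsin or elastase. Lysozymes cut the peptidoglycan of bacterial cell walls, and in flies, which feed on microbe-rich matter, most of these genes serve digestion. Most of them are thus known as products of the gut epithelium. In a dissected fat body, such transcripts may come from the fat body or from gut tissue in the same sample. In bulk RNA, fewer cells of a type and less RNA per cell cannot be told apart.

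The tissue label was checked against 9 fat body markers. The lipoprotein apolpp, which carries lipid in the blood, stood between 1159 and 2335 TPM, after each library was scaled by its median ratio to the others ("scaled TPM"), in all 8 libraries. The storage protein Lsp1alpha stood at 9.41 and 9.48 scaled TPM in the mutant libraries, against 4525 to 13106 in the 6 wild-type libraries. Lsp1gamma went the other way, with 132 and 204 in the mutant and at most 15.6 in wild type. Fbp1 had 6.56 and 13.0 in fed wild type, but 5641 to 23553 in starved wild type. Set against 16 h wild type, the mutant had 5 of the 9 markers lower and 2 higher (limma). Lsp1beta stood at 735 and 468 scaled TPM in the mutant and at 8920 to 17392 in wild type. Of the markers named here, apolpp and Lsp1beta were thus high in every library, the latter at a lower level in the mutant. The share of fat body in each library was not tested. RNA classes differed between libraries as well: ribosomal RNA took 6.67% to 49.5% of all TPM and 7SL RNA 11.8% to 40.3%, and wild-type 16 h replicate 1 had the most ribosomal RNA and the least protein-coding RNA (17.1%). Cpsf5 itself, summed over 2 transcripts, had 3.60 and 3.01 scaled TPM in the mutant. In the wild-type libraries it had 3.62 to 11.98, which does not check the genotype because the lesion is unknown. Read depth cannot be recovered from TPM and is unknown for every value.

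Of the 34 genes, 13 reached a mean of 1 scaled TPM over the 8 libraries and were tested: 5 Jonah proteases, 5 trypsins and 3 lysozymes. The other 21 did not, and 14 of them were under 1 scaled TPM in every library. A gene high in 1 group passes this filter through that group alone. The share of tested genes that differ, and the median of their fold changes, thus carry no weight by themselves. Most of these genes are short. A single exon made up the annotated transcript of 29 of the 34 genes (85.3%), among them all 11 trypsins and all 7 lysozymes, against 2127 of 13764 protein-coding genes (15.5%).

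Fed wild-type larvae and starved mutant larvae both had digestive protease RNA, and starved wild-type larvae had almost none. Summed over all 34 genes, the mutant libraries had 111 and 503 scaled TPM. The wild-type libraries had 185 and 283 when fed, 8.64 and 6.995 at 4 h and 15.04 and 9.47 at 16 h. Every starved wild-type library was thus below every fed and every mutant library. These sums were a small part of the RNA, at most 0.157% of the protein-coding TPM (mutant replicate 2).

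**Figure D1:**
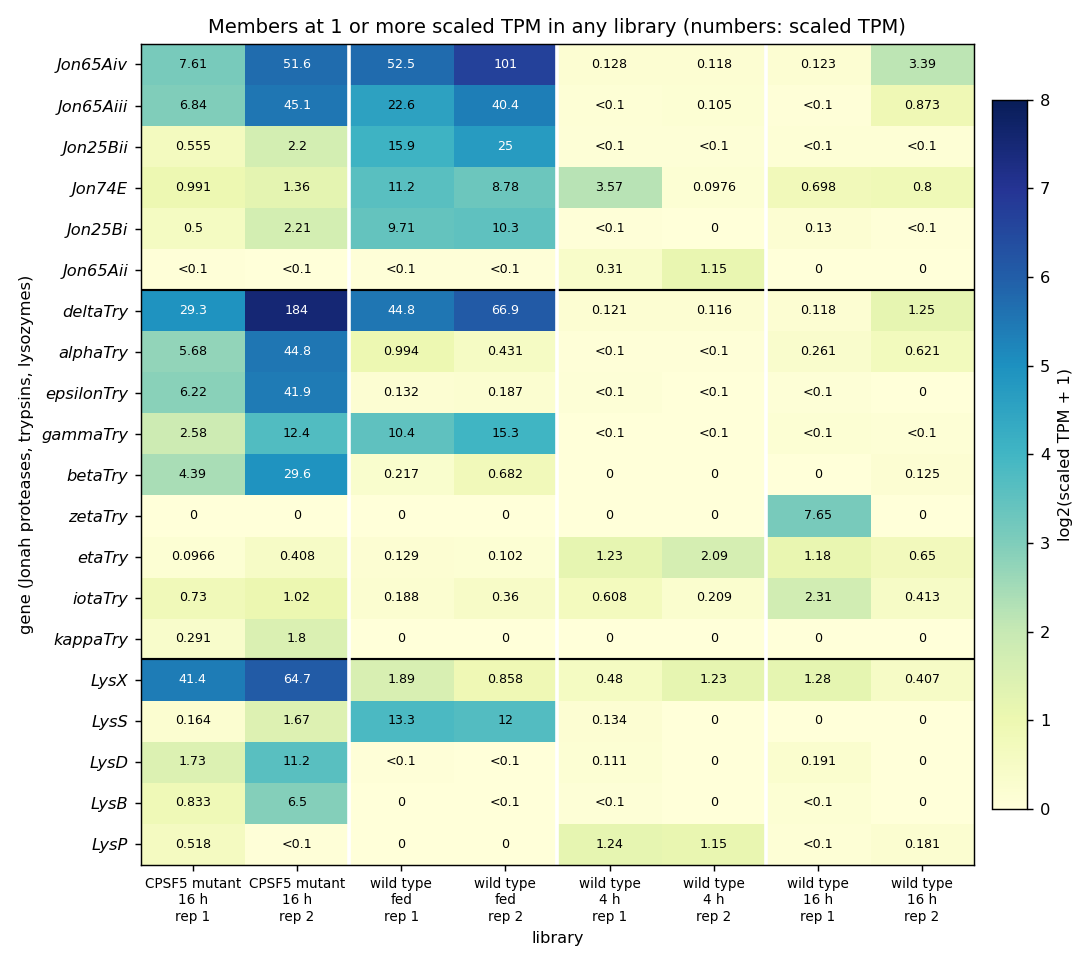
Level of the 20 genes that reached 1 scaled TPM in at least 1 library, 1 row per gene and 1 column per library, with colour showing log2(scaled TPM + 1). The columns for wild type at 4 h and 16 h are pale for nearly all rows, the 2 fed columns are dark for a subset of genes, and the 2 mutant columns are dark for a partly different subset, more so in mutant replicate 2.

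After 4 h without food, wild-type larvae had lower levels of 8 of the 13 tested genes than fed larvae: 5 of 5 Jonah proteases, 2 of 5 trypsins and 1 of 3 lysozymes. Over all 8332 genes tested, 26.6% fell and 21.1% rose (limma, adjusted p under 0.05). None of the 13 rose, and at an unadjusted p under 0.05 the count was again 8, all of them lower. The median log2 fold change of the 13 genes was -3.44, and that of all genes tested -0.03. For 16 h against fed wild type 8 of the 13 fell too and none rose (limma; 8 at an unadjusted p under 0.05), where 27.7% of all genes fell and 21.6% rose, with medians of -3.35 for the 13 genes and 0.01 for all. Both comparisons use the same fed libraries. Because genes can pass the filter through the fed libraries alone, these counts and medians carry no weight by themselves. Setting 16 h against 4 h in wild type, no gene of the 13 was called by limma (adjusted p 0.649 to 0.997), and none at an unadjusted p under 0.05. In that comparison 0.036% of all genes were called. The fall was thus in place by 4 h.

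Mutant larvae starved for 16 h had higher levels of 9 of the 13 genes than wild-type larvae starved as long: 2 of 5 Jonah proteases, 5 of 5 trypsins and 2 of 3 lysozymes. None was lower (limma; 11 genes differed at an unadjusted p under 0.05). Among all genes tested 21.4% were higher and 12.1% lower. The count of 9 fell to 2 (LysX and deltaTry) in a fit of the 4 libraries of these groups alone, to 3 without 16 h replicate 1 and to 5 without 16 h replicate 2. The medians of the log2 fold changes were 3.26 for the 13 genes and 0.09 for all. Set against fed wild type, the starved mutant had 5 genes higher (3 trypsins and 2 lysozymes), where 23.0% of all genes were higher. It had 4 genes lower (3 Jonah proteases and 1 lysozyme), where 22.4% of all genes were lower. The medians were -0.72 for the 13 genes and 0.07 for all. Without either fed library, and in a fit of the 4 libraries alone, the count of higher genes was 2, one of them LysX. These comparisons share the mutant libraries, and their second groups also serve in the comparisons among wild-type larvae. Genes can pass the filter through the mutant or fed libraries alone, so these counts and medians carry no weight by themselves either.

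**Figure D2:**
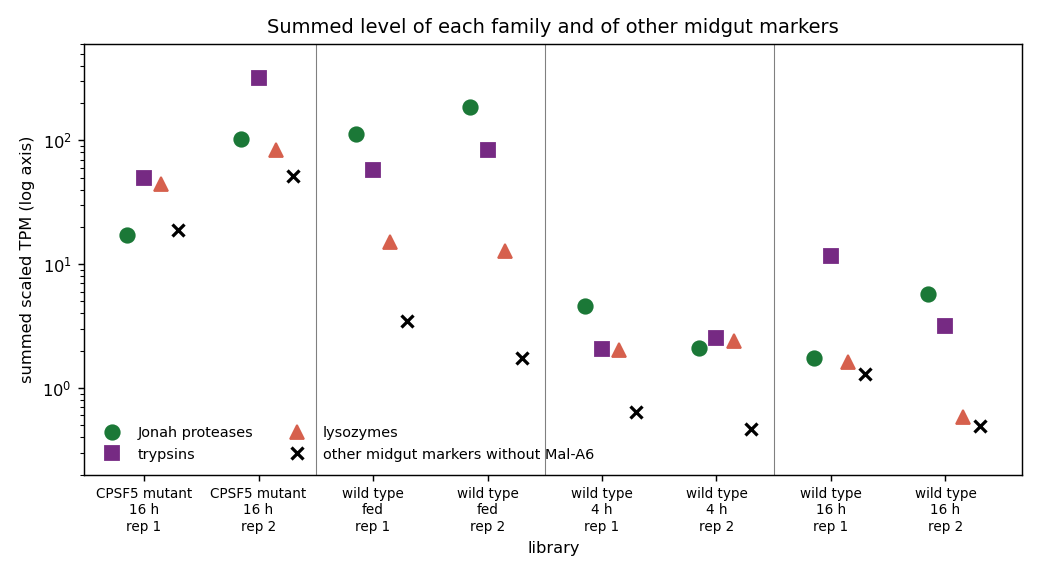
Summed scaled TPM of the 16 Jonah proteases, the 11 trypsins, the 7 lysozymes and the midgut markers other than Mal-A6 in each library, on a log axis, 1 point per library. The Jonah sum was highest in fed replicate 2 (186), while the trypsin sum (316), the lysozyme sum (84.2) and the midgut marker sum (51.9) were highest in mutant replicate 2. Mal-A6, left out of the markers here after its values were seen, stood at 32.5 to 67.7 in starved wild type. With Mal-A6 the midgut marker sum was highest in wild-type 4 h replicate 2 (68.1).

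Among the Jonah proteases, Jon65Aiv (FBgn0250815; BDGP6 chromosome 3L, 6039155 to 6040135, plus strand) had the highest level. It stood at 7.61 and 51.6 scaled TPM in the mutant, 52.5 and 101 in fed wild type, 0.128 and 0.118 at 4 h and 0.123 and 3.39 at 16 h. Both fed libraries and mutant replicate 2 were high, mutant replicate 1 was intermediate and the starved wild-type libraries were near 0. On the log2(scaled TPM + 1) scale, Jon65Aiv changed by -6.04 at 4 h (SE 0.97, adjusted p = 0.00332) and by -5.05 at 16 h (same SE, adjusted p = 0.00662), each time to levels that did not overlap those of fed larvae. The mutant exceeded wild type at 16 h, with a log2 fold change of 3.26 (SE 0.97, adjusted p = 0.0461). This call was lost without mutant replicate 2 (0.177), without 16 h replicate 1 (0.179) or without any 1 fed or 4 h library (0.0698 to 0.0790).

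Its neighbour Jon65Aiii (FBgn0035665; 3L, 6050757 to 6051690, plus strand) followed the same order. It had 6.84 and 45.1 scaled TPM in the mutant, 22.6 and 40.4 in fed wild type, 0.0851 and 0.105 at 4 h and 0.0430 and 0.873 at 16 h. The fed libraries lay within the range of the mutant pair. Jon65Aiii fell at 4 h (log2 fold change -4.84, SE 0.81, adjusted p = 0.00377) and 16 h (-4.48, adjusted p = 0.00505). The mutant was above 16 h wild type (3.77, SE 0.81, adjusted p = 0.0162), a call lost without 16 h replicate 1 (0.0739).

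The pair on the left arm of chromosome 2 behaved otherwise. Jon25Bii (FBgn0031654; 2L, 4952243 to 4953136, minus strand) measured 0.555 and 2.20 scaled TPM in the mutant, 15.9 and 25.0 in fed wild type, 0.0480 and 0.0521 at 4 h and 0.0845 and 0.0753 at 16 h. Jon25Bi (FBgn0020906; 2L, 4954279 to 4955144, minus strand) measured 0.500 and 2.21 in the mutant, 9.71 and 10.3 in fed wild type, 0.0370 and 0 at 4 h and 0.130 and 0.0388 at 16 h. The fed libraries held most of either RNA. Jon25Bii fell at 4 h (log2 fold change -4.32, SE 0.37, adjusted p = 0.000290) and 16 h (-4.28, SE 0.37, adjusted p = 0.000322). Jon25Bi fell as well, with a log2 fold change of -3.44 (SE 0.35, adjusted p = 0.000567) after 4 h and -3.35 (adjusted p = 0.000623) after 16 h. Both were lower in the starved mutant than in fed wild type (Jon25Bii -3.24, adjusted p = 0.00115; Jon25Bi -2.33, adjusted p = 0.00300). Against wild type at 16 h, the mutant values did not pass, with log2 fold changes of 1.05 (SE 0.37, adjusted p = 0.0736) and 1.02 (SE 0.35, adjusted p = 0.0682). Without mutant replicate 1 both log2 fold changes were 1.57. Both genes passed in deposited TPM without scaling (limma, adjusted p 0.0244 and 0.0283) and when rescaled over coding genes (0.028 and 0.041). They also passed with 0.1 in place of 1 added before the log (0.0193 and 0.0335). The lack of a call thus depended on these settings.

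Jon74E (FBgn0023197; 3L, 17548077 to 17549127, minus strand) varied within a group. It had 0.991 and 1.36 scaled TPM in the mutant, 11.2 and 8.78 in fed wild type, 3.57 and 0.0976 at 4 h and 0.698 and 0.800 at 16 h, so that 1 of the 4 h libraries kept part of the fed level. Its falls at 4 h (log2 fold change -2.29, SE 0.61, adjusted p = 0.0228) and 16 h (-2.64, SE 0.61, adjusted p = 0.0131) were each lost without fed replicate 1 or fed replicate 2 (adjusted p 0.0541 to 0.109), and the fall at 16 h also without 16 h replicate 1 (0.0531). The mutant was lower than fed wild type (-2.34, adjusted p = 0.0225), a call lost without either library of either group (0.0805 to 0.106). Mutant and wild type at 16 h differed by 0.31 (SE 0.61, adjusted p = 0.723). The other 11 Jonah genes stayed low: apart from Jon65Aii, which had 0.310 and 1.15 scaled TPM at 4 h and at most 0.0414 elsewhere, none exceeded 0.480 in any library, a value reached by Jon44E.

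Within the Jonah sum the make-up differed between starved mutant and fed larvae. Jon65Aiv made up 44.3% and 50.0% of the sum in the mutant and 46.6% and 54.4% in fed wild type. Jon65Aiii made up 39.8% and 43.7% in the mutant, against 20.1% and 21.8% in fed wild type. Jon25Bii made up 3.23% and 2.13% in the mutant, against 14.2% and 13.5%. The mutant pairs and fed pairs of the last 2 genes did not overlap. These shares follow from the levels above and were not tested apart from them.

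The trypsins lie together. All 11 sit on chromosome 2R between 11336840 and 11357537 (BDGP6), a stretch of 20.7 kb that holds 14 measured genes, in the order lambdaTry, kappaTry, zetaTry, etaTry, thetaTry, alphaTry, epsilonTry, betaTry, gammaTry, CG30031, CG30025, deltaTry, CG13202 and iotaTry. The 5 tested trypsins, alphaTry to deltaTry, are next to each other apart from CG30031 and CG30025, which are near copies of gammaTry and deltaTry. Reads could be split among such copies in counting, so single values of gammaTry and deltaTry are uncertain, and so is any sum that leaves the copies out. Summed over the 5 trypsins, the mutant had 48.1 and 312 scaled TPM. Wild type had 56.6 and 83.5 when fed, 0.223 and 0.190 at 4 h, and 0.519 and 2.08 at 16 h. With CG30031 and CG30025 added, the sums were 66.6 and 448 in the mutant, 73.8 and 105 in fed wild type, and at most 2.17 in the starved wild-type libraries, in the same order.

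**Figure D3:**
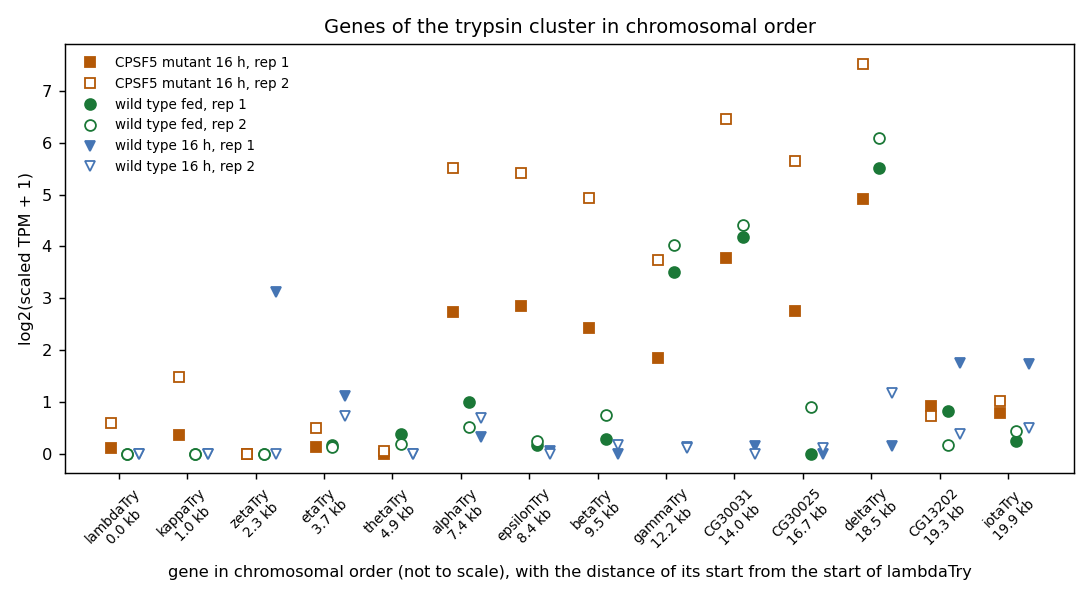
Level of each gene of the trypsin cluster (scaled TPM, on a log scale), with the genes in chromosomal order, in the libraries of the mutant, fed wild type and wild type at 16 h. In the mutant the block from alphaTry to deltaTry was high throughout, in fed wild type gammaTry, CG30031 and deltaTry were high, and the genes at both ends of the cluster were low in most libraries.

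The highest trypsin was deltaTry (FBgn0010358; 2R, 11355319 to 11356128, plus strand). It stood at 29.3 and 184 scaled TPM in the mutant (mean 106 ± 109, SD, n = 2), 44.8 and 66.9 in fed wild type (55.9 ± 15.6), 0.121 and 0.116 at 4 h and 0.118 and 1.25 at 16 h. The fed libraries lay between the mutant libraries, and the starved wild-type libraries were far below both. deltaTry fell at 4 h (log2 fold change -5.64, SE 0.82, adjusted p = 0.00223) and 16 h (-5.14, SE 0.82, adjusted p = 0.00316). Mutant exceeded wild type at 16 h by 5.56 (SE 0.82, adjusted p = 0.00477), which held when any 1 library was left out. Against fed wild type the mutant did not pass (0.42, SE 0.82, adjusted p = 0.708), and the value turned to -0.88 without mutant replicate 2 and passed at 1.73 without mutant replicate 1 (adjusted p = 0.0467).

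gammaTry (FBgn0010359; 2R, 11349061 to 11349870, minus strand) was the other trypsin of fed larvae. It had 2.58 and 12.4 scaled TPM in the mutant, 10.4 and 15.3 in fed wild type, 0.0135 and 0.0194 at 4 h and 0.0941 and 0.0882 at 16 h. The mutant and fed ranges overlapped, and both lay above starved wild type. It fell at 4 h (log2 fold change -3.74, SE 0.57, adjusted p = 0.00272) and 16 h (-3.64, SE 0.57, adjusted p = 0.00302). The mutant was higher than wild type at 16 h (2.67, SE 0.57, adjusted p = 0.0163), a call lost without either 16 h library (0.0614 and 0.0641).

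The remaining 3 trypsins of the block were high in the mutant and low in all wild-type libraries. alphaTry (FBgn0003863) had 5.68 and 44.8 scaled TPM in the mutant, 0.994 and 0.431 in fed wild type, 0.0373 and 0.0360 at 4 h and 0.261 and 0.621 at 16 h. epsilonTry (FBgn0010425) had 6.22 and 41.9 in the mutant, 0.132 and 0.187 in fed wild type, 0.0520 and 0.0189 at 4 h and 0.0459 and 0 at 16 h. betaTry (FBgn0010357) had 4.39 and 29.6 in the mutant, 0.217 and 0.682 in fed wild type, 0 at 4 h in both libraries, and 0 and 0.125 at 16 h. For all 3 genes every mutant library exceeded every wild-type library.

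None of the 3 passed for starved against fed wild type (limma, adjusted p 0.532 to 0.895), at levels too near 0 for a fall of the size of deltaTry's to be seen on this scale. The mutant exceeded fed wild type in alphaTry (log2 fold change 3.37, SE 0.82, adjusted p = 0.0179), epsilonTry (3.92, SE 0.75, adjusted p = 0.00743) and betaTry (3.17, SE 0.74, adjusted p = 0.0159). It exceeded wild type at 16 h in alphaTry (3.61, adjusted p = 0.0196), epsilonTry (4.11, adjusted p = 0.00949) and betaTry (3.60, adjusted p = 0.0144). The alphaTry and betaTry calls were lost without either library of the wild-type group set against the mutant (0.0557 to 0.0960). epsilonTry held without any 1 library in both comparisons, and missed the threshold only in a fit of the 4 mutant and 16 h libraries alone (0.0520).

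**Figure D4:**
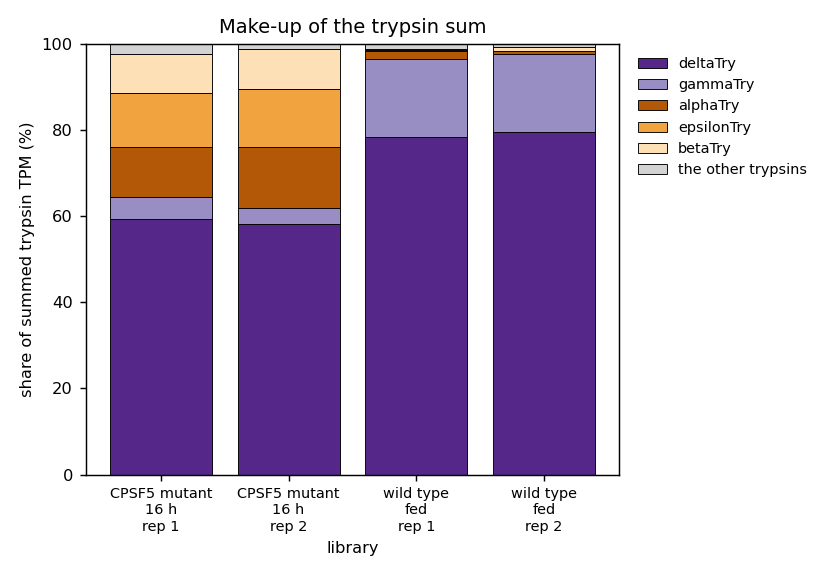
Share of the summed trypsin level, in percent, held by each trypsin in the 2 mutant and the 2 fed wild-type libraries, as stacked bars from 0 to 100. deltaTry held 59.3% and 58.1% in the mutant and 78.4% and 79.6% in fed wild type, and alphaTry, epsilonTry and betaTry form visible bands in the mutant bars alone.

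The mutant libraries differed 6.41-fold in their trypsin sums, yet the shares of deltaTry, epsilonTry and betaTry were close between them. In the fed pair the shares of deltaTry, gammaTry and epsilonTry were close, and those of alphaTry and betaTry, each at a low level, were less so. In starved wild type, where the sums were low, shares differed within pairs, with zetaTry at 65.6% and 0% at 16 h. epsilonTry held 12.6% and 13.3% of the sum in the mutant, against 0.231% and 0.222% in fed wild type. alphaTry held 11.5% and 14.2%, against 1.74% and 0.513%, and betaTry 8.89% and 9.36%, against 0.379% and 0.811%. gammaTry held 5.23% and 3.93%, against 18.1% and 18.2%. deltaTry held 59.3% and 58.1%, against 78.4% and 79.6%. The mixture of trypsins in mutant larvae thus differed from that of fed larvae, while the trypsin sums of both groups overlapped. Shares of 3 genes were higher and those of deltaTry and gammaTry lower. These shares leave out the near copies CG30031 and CG30025, so those of gammaTry and deltaTry are uncertain.

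The 6 other trypsins were under the filter. zetaTry stood at 7.65 scaled TPM in wild-type 16 h replicate 1 and at 0 in the other 7 libraries. lambdaTry had 0.0801 and 0.502, and kappaTry 0.291 and 1.799, in the mutant, and both were at 0 in all wild-type libraries. iotaTry ranged from 0.188 (fed) to 2.31 (16 h replicate 1), and thetaTry did not exceed 0.308. etaTry had 0.0966 and 0.408 in the mutant, 0.129 and 0.102 in fed wild type, 1.23 and 2.09 at 4 h and 1.18 and 0.650 at 16 h, the reverse of the order seen for deltaTry. In a fit without the filter it was higher at 4 h than in fed larvae (1.24, adjusted p = 0.0167).

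The 7 lysozyme genes sit on chromosome 3L between 1194739 and 1228238 (BDGP6, 33.5 kb), with LysX at one end and LysS at the other. LysX (FBgn0004431; 1194739 to 1195302, minus strand) is known from larvae near pupariation. It had 41.4 and 64.7 scaled TPM in the mutant (53.0 ± 16.4, SD, n = 2), 1.89 and 0.858 in fed wild type, 0.480 and 1.23 at 4 h and 1.28 and 0.407 at 16 h. The mutant libraries stood alone and the 6 wild-type libraries overlapped. LysX was higher in the mutant than in 16 h wild type (log2 fold change 4.88, SE 0.38, adjusted p = 0.000784) and than in fed wild type (4.51, SE 0.38, adjusted p = 0.000416), and both calls held when any 1 library was left out. It did not pass at 4 h (-0.35, SE 0.38, adjusted p = 0.497) or 16 h (-0.37, SE 0.38, adjusted p = 0.454) against fed larvae.

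LysS (FBgn0004430; 1227747 to 1228238, plus strand), known from the gastric caeca at the front of the larval midgut, had the opposite pattern. It stood at 0.164 and 1.67 scaled TPM in the mutant, 13.3 and 11.96 in fed wild type, 0.134 and 0 at 4 h and 0 in both libraries at 16 h. Fed larvae alone had a substantial level. LysS fell at 4 h (log2 fold change -3.68, SE 0.38, adjusted p = 0.000593) and 16 h (-3.77, SE 0.38, adjusted p = 0.000542), and was less abundant in the mutant than in fed wild type (-2.95, SE 0.38, adjusted p = 0.00176). Mutant and wild type at 16 h differed by 0.82 (SE 0.38, adjusted p = 0.144), which passed without mutant replicate 1 (0.00872). LysX made up 92.7% and 76.8% of the lysozyme sum in the mutant, against 12.4% and 6.67% in fed wild type, and LysS 0.367% and 1.98%, against 87.4% and 93.0%.

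LysB, LysC, LysD and LysE form a subgroup of near copies expressed in the midgut, of which LysC is annotated as a pseudogene, and their reads could be exchanged in counting. Their sum was 2.58 and 17.8 scaled TPM in the mutant, 0.0281 and 0.0432 in fed wild type, 0.170 and 0 at 4 h and 0.285 and 0 at 16 h. LysD (FBgn0004427; 1210717 to 1211196, minus strand) held most of it in the mutant, at 1.73 and 11.2. It was higher in the mutant than in 16 h wild type (log2 fold change 2.40, SE 0.66, adjusted p = 0.0352) and than in fed wild type (2.49, SE 0.66, adjusted p = 0.0232). The first call was lost without any 1 wild-type library (0.0529 to 0.117), the second without fed replicate 1 or fed replicate 2 (0.0908 and 0.0969). LysB, under the filter, had 0.833 and 6.50 in the mutant and at most 0.0941 elsewhere. LysC and LysE had a value above 0 in 1 mutant library each, 0.111 and 0.0218. LysP, known from the adult salivary gland, had 0.518 and 0.0227 in the mutant, 0 in both fed libraries, 1.24 and 1.15 at 4 h and 0.0675 and 0.181 at 16 h. Without the filter it was higher at 4 h than in fed larvae (1.13, adjusted p = 0.0102).

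The mutant libraries differed in how much of this RNA they held. Of the 13 tested genes, 9 were at 1 scaled TPM or more in both mutant libraries, and 8 of these were over 4-fold higher in replicate 2 than in replicate 1, from 4.81-fold (gammaTry) to 7.88-fold (alphaTry). LysX, at 1.56-fold, was the exception. Over the 7818 genes at 1 or more in both mutant libraries the median ratio was 0.979, and 188 genes (2.40%) were 4-fold or more higher in replicate 2. In fed wild type the ratios of replicate 2 to replicate 1 were 0.782 to 1.92 for the 8 genes at 1 or more in both, and 7 of 6918 genes (0.101%) reached 4-fold. The other 4 tested genes were under 1 scaled TPM in mutant replicate 1, and were 10.2-fold (LysS), 4.42-fold (Jon25Bi), 3.96-fold (Jon25Bii) and 1.37-fold (Jon74E) higher in replicate 2. Most tested proteases, LysD and LysS were thus several-fold higher in replicate 2, as was a small part of the transcriptome, while Jon74E and LysX differed little. What sets these libraries apart was not tested.

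**Figure D5:**
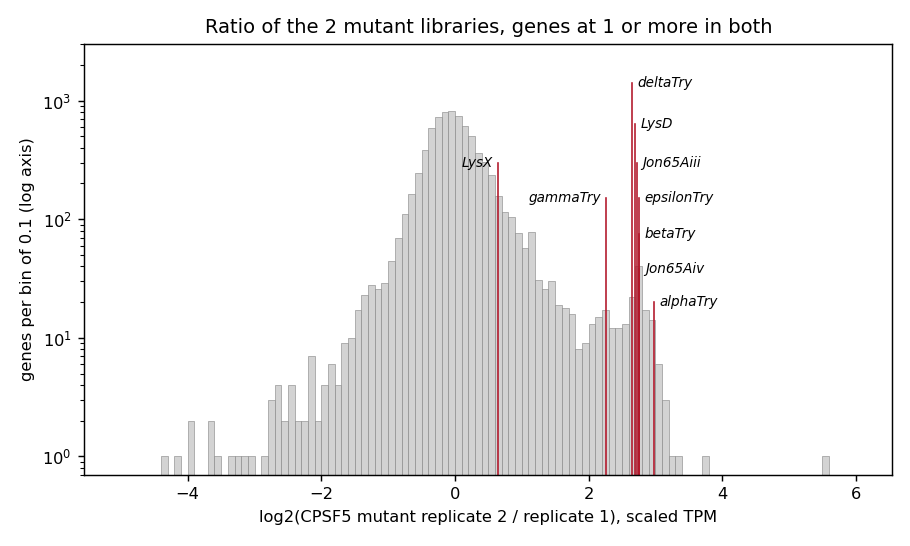
Distribution over 7818 genes of the log2 ratio of mutant replicate 2 to mutant replicate 1 (scaled TPM, genes at 1 or more in both), with a vertical line for each of the 9 protease and lysozyme genes in that set. The genes centre near 0 (median ratio 0.979), 8 lines stand between ratios of 4.81 and 7.88 in the right tail, and the line of LysX stands at 1.56.

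Other midgut genes were read beside the 3 families. Of 13 midgut markers outside the families 6 were tested, and in the mutant 5 were higher and 1 lower than in wild type at 16 h, and 4 were higher than in fed wild type. Their sum was 19.0 and 54.2 scaled TPM in the mutant, 3.61 and 1.97 in fed wild type, 40.6 and 68.1 at 4 h and 43.0 and 33.0 at 16 h, so that the mutant and starved wild-type libraries overlapped. The maltase Mal-A6 made up most of it in starved wild type, at 32.5 to 67.7, against 0.277 and 2.32 in the mutant. Without this gene, left out after its values were seen, the sum was 18.8 and 51.9 scaled TPM in the mutant, 3.48 and 1.75 in fed wild type, 0.644 and 0.463 at 4 h and 1.30 and 0.496 at 16 h. In fed larvae most of that sum was Peritrophin-A (3.03 and 1.43), and the amylase Amy-p had 0.0428 and 0.00976, Amy-d 0.0122 and 0.0434, the maltase Mal-A1 0.0527 and 0.0335. In the mutant Amy-p had 3.27 and 10.9, Amy-d 5.45 and 16.5, and Vha100-4, a proton pump subunit, 4.63 and 10.7. These amylases and Mal-A1 were thus near 0 in fed larvae, where Jonah proteases stood above 100 scaled TPM in sum, and were present in the mutant. The part of gut tissue in these levels was not tested.

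Among 18 other digestive proteases, 4 were tested. yip7, which lies beside the Jon65A genes, resembled Jon65Aiv, with 2.90 and 19.1 scaled TPM in the mutant, 21.0 and 28.2 in fed wild type, 0.0933 and 0.0676 at 4 h and 0.205 and 0.912 at 16 h. It fell at 4 h (log2 fold change -4.55, adjusted p = 0.00305) and 16 h (-4.06, adjusted p = 0.00470), as the 1 gene of the list called at either time. Bace, an aspartic protease, resembled epsilonTry, with 7.32 and 46.5 in the mutant and at most 0.114 in wild type. The mutant exceeded wild type at 16 h in Bace (4.25, adjusted p = 0.00794), CG18180 (3.72, adjusted p = 0.00223) and yip7 (2.54, adjusted p = 0.0389, lost without any 1 wild-type library, at up to 0.143). Against fed wild type it exceeded in Bace (4.21, adjusted p = 0.00530), CG18180 (3.65, adjusted p = 0.00122) and Ser6 (1.99, adjusted p = 0.0458, likewise lost without any 1 wild-type library, at up to 0.147).

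Carbohydrate enzymes did not move as one with the proteases. The 16 enzymes of starch and sugar digestion summed to 22.7 and 65.1 scaled TPM in the mutant, 58.0 and 102 in fed wild type, and 327 to 538 in starved wild type. Mal-A5 held most of the wild-type sums, with 6.14 and 11.6 in the mutant and 51.0 and 91.3 in fed wild type. Of the 16 genes 6 were tested. Amy-d (log2 fold change 3.36, adjusted p = 0.00341), Amy-p (2.75, adjusted p = 0.00743) and Mal-A1 (2.13, adjusted p = 0.0372, lost without any 1 wild-type library, at up to 0.112) were higher in the mutant than in 16 h wild type. Mal-A6 rose in wild type at 4 h (5.497, adjusted p = 0.000299) and 16 h (5.01, adjusted p = 0.000439), when the proteases were near 0. The mutant had less of it than 16 h wild type (-4.20, adjusted p = 0.00216). Mal-A5 did the same (2.38 at 4 h, adjusted p = 0.00530; 2.49 at 16 h, adjusted p = 0.00445; -5.36 in the mutant, adjusted p = 0.000874). Over the list, 2 genes rose at 4 h, 2 rose and 1 fell at 16 h, and 3 were higher and 2 lower in the mutant than in 16 h wild type.

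Lists of fat digestion and of other lysozymes split. The first also holds genes that are not digestive enzymes, among them NLaz. Of 6 genes of fat digestion 4 were tested: NLaz, a lipocalin, rose at 4 h (log2 fold change 3.84, adjusted p = 0.0179, lost without either fed library or 4 h replicate 1, at up to 0.0906) and stood below 16 h wild type in the mutant (-4.22, adjusted p = 0.0196, lost without either mutant library, at up to 0.0955), while the lipase Lip3 was higher in the mutant (1.45, adjusted p = 0.0321, lost without any 1 fed or 16 h library, at up to 0.113). Of 6 other c-type lysozymes 2 were tested, and they went opposite ways. CG16756 had 114 and 88.7 scaled TPM in the mutant, 32.1 and 26.0 in fed wild type, 1.496 and 0.309 at 4 h and 2.86 and 2.20 at 16 h. It fell in starved wild type (-4.05 at 4 h, adjusted p = 0.000255; -3.09 at 16 h, adjusted p = 0.000682), and the mutant exceeded 16 h wild type (4.85, adjusted p = 0.000541), as for deltaTry and Jon65Aiii. CG16799 had 64.0 and 56.0 in the mutant, 83.9 and 84.7 in fed wild type, 69.3 and 67.1 at 4 h and 130 and 133 at 16 h. It rose in wild type at 16 h (0.63, adjusted p = 0.0265, lost without any 1 fed or 16 h library, at up to 0.119, and also in deposited TPM or when rescaled over coding genes). The mutant had less of it than wild type starved as long (-1.12, adjusted p = 0.00612, lost without scaling).

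Of 14 factors known to act on midgut digestive genes, 11 were tested. In wild type 4 rose at 4 h and 7 at 16 h, but in deposited TPM without scaling 0 rose at 4 h (limma; 2 differed at an unadjusted p under 0.05) and 1 at 16 h. sug encodes the repressor Sugarbabe, which takes part in sugar-dependent repression of digestive enzymes. It stood at 72.0 and 75.3 scaled TPM in the mutant, 2.52 and 1.09 in fed wild type, 6.14 and 6.52 at 4 h and 34.1 and 27.8 at 16 h. Its rise at 16 h was 3.55 on the log2 scale (limma, adjusted p = 0.000192), and the mutant had the highest level. Of the 11 factors, 1 was higher and 1 lower in the mutant than in 16 h wild type, and 8 were higher than in fed wild type (limma). In deposited TPM without scaling these counts were 4, 0 and 3. Whether any of these factors bears on the protease levels was not tested. GATAe, a regulator of midgut identity, was under the filter, at 0.461 and 1.27 in the mutant and at most 0.824 in wild type.

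Markers of other tissues moved with the groups too. The salivary gland markers include glue genes, which switch on late in larval life. This list summed to 3466 and 675 scaled TPM in the mutant and 455 and 1397 in fed wild type. In starved wild type it summed to 22138 and 23906 at 4 h and 13719 and 39793 at 16 h. In the mutant and fed libraries nearly all of this was ng3, with 3459 and 668 in the mutant, 408 and 1391 in fed wild type, 479 and 88.0 at 4 h and 1058 and 1338 at 16 h. Without ng3, left out after its values were seen, the sums were 7.25 and 6.94 in the mutant, 46.9 and 5.89 in fed wild type, 21659 and 23818 at 4 h and 12661 and 38455 at 16 h, high where protease RNA was near 0. Of 9 tested, 7 rose at 4 h and 8 at 16 h, and 7 were lower in the mutant than in 16 h wild type. Of 8 muscle markers tested, 7 fell at 4 h and 7 at 16 h, with list sums of 91.0 and 55.0 in the mutant, 160 and 109 in fed wild type and 16.1 to 35.6 in starved wild type. In the mutant against wild type at 16 h, 4 of 4 tracheal and cuticle markers and 2 of 4 hemocyte markers were higher, and of 6 Malpighian tubule markers none passed (limma; 1 at an unadjusted p under 0.05). Of the 9 fat body markers 2 were higher and 5 lower. The part of tissue makeup or larval stage in the protease and lysozyme levels was not tested, and both cannot be told apart from the groups with these libraries.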

How the data were processed

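The authors deposited TPM (length-adjusted transcript shares, scaled to a fixed total) for 17471 genes, with 1 column per library and no pooling. STAR 2.5.3 and genome build BDGP6 were used, per the submitters' processing notes. Libraries came from Trizol RNA, depleted of ribosomal RNA and made with a stranded total RNA kit, per the labels' protocols. The quantifier, the annotation release and the use of strand are not stated in the labels or headers. Symbols and coordinates came from a later BDGP6 annotation, which matched 17249 identifiers and left 222 unmatched. Cpsf5 was summed over its transcripts because its gene identifier had changed.

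Each library was divided by its median ratio over the 5393 genes at 1 TPM or more in all 8 libraries, giving scaled TPM. TPM are shares of all RNA, so a library rich in ribosomal RNA reads lower before this step. The 8332 genes with a mean of 1 or more entered limma 3.58.1 (R version 4.3.3) as log2(scaled TPM + 1), a scale that understates changes at low levels. The model had 1 mean per group over all 8 libraries, and a variance trend. Tests were two-sided, with p adjusted by Benjamini-Hochberg over the genes of each of 5 comparisons. Calls are at an adjusted p under 0.05. Residual degrees of freedom were 4, and the median prior ones were 2.16. An exact permutation test of 2 libraries against 2 cannot give a two-sided p below 0.333. In simulated data for 4 h against fed, with 200 of 8332 genes changed, 22, 154 and 184 genes were recovered at log2 changes of 1, 2 and 4. False calls numbered 1, 9 and 9. A far larger share was called in the real comparison (26.6% lower and 21.1% higher), so these recovery rates need not hold there.

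Members named with values in every library are those with a mean of 1 or more, plus any that went against their family. Of each gene list, up to 4 called genes are named. The members and lists were chosen with earlier results of these data known. Replicates were numbered in accession order. Near copies were not checked by protein sequence, and no sequence was used here.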

Additional observations from a re-analysis of the deposited data

How the results depend on the processing

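Depth is unknown, groups held 2 libraries, and levels under about 1 scaled TPM sit near the pseudocount, which limits what can be said of small changes. No paired analysis was possible because the labels carry no replicate numbers. Of 13 genes in 5 comparisons, no called change reversed. Without the filter (34 genes tested), 2 genes rose at 4 h, 1 rose at 16 h and 1 was lower in mutant than in 16 h wild type. With a mean of 5 or more (8 genes tested), 5 fell at 4 h, 5 fell at 16 h, and the mutant had 3 higher and 1 lower than fed wild type. In fits of the 4 libraries compared, the mutant had 2 genes higher than wild type at 16 h and 2 higher than fed wild type. With 1 library left out, the count ran from 3 to 12 for mutant against wild type at 16 h and from 2 to 6 for mutant over fed. The high counts came without mutant replicate 1, the low ones without 16 h replicate 1 and without either fed library. In deposited TPM without scaling the median of all genes moved by -0.51 at 4 h and -0.80 at 16 h, and by 0.75 for mutant against wild type, and LysX then fell at 16 h (-0.95, adjusted p = 0.0475). Signs turned in uncalled values. LysD was -0.025 at 4 h under quantile normalization and ran from -0.036 to 0.12 with 1 library left out, from -0.036 to 0.22 at 16 h, and for 16 h against 4 h from -0.076 to 0.18 and -0.00883 without scaling. For 16 h against 4 h, LysX was 0.13 with rescaling over coding genes and Jon25Bii -0.042 under quantile normalization. With 1 library left out that comparison ran from -0.37 to 0.33 for LysX, -0.00054 to 1.006 for deltaTry, -0.050 to 0.015 for epsilonTry, -1.39 to 0.67 for Jon74E, -0.070 to 0.77 for Jon65Aiii and -0.00012 to 1.97 for Jon65Aiv. For mutant against fed, deltaTry ran from -0.88 to 1.73 and Jon65Aiii from -2.00 to 0.56, the negative ends without mutant replicate 2. The causes were not tested. The family sums kept their highest library under all 5 scalings, and the ratio of mutant replicate 2 to replicate 1 of the trypsin sum ran from 5.31 to 6.41.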

Other observations

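Some genes outside the naming rule stood high in mutant replicate 2, and were picked after their values were seen. Peritrophin-15a and Peritrophin-15b, which encode chitin-binding proteins of the gut lining, stood at 64.7 and 496 and at 20.9 and 176 scaled TPM in the mutant. Muc55B, a mucin, stood at 26.0 and 173, and Acbp6, an acyl-CoA binding protein, at 63.8 and 489, against 4.50 and 1.89 in fed wild type. These were 6-fold or more higher in mutant replicate 2 than in replicate 1. CG30031 in the trypsin cluster had 12.7 and 86.5 in the mutant and 17.2 and 20.4 in fed wild type, whereas its neighbour CG30025 had 5.79 and 49.4 in the mutant and 0 and 0.863 in fed wild type. CG31789 had 41.8 and 311 in the mutant and 26.5 and 37.4 in fed wild type.

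zetaTry stood at 7.65 scaled TPM in wild-type 16 h replicate 1 alone, the library with the most ribosomal RNA, and made up most of its trypsin sum of 11.7. Peritrophin-15a stood at 7.61 in the same library and at most 0.170 in the other wild-type libraries.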
